A study of Emberiza melanocephala with 12 samples.

Results

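The most abundant liver transcripts of the blackheaded bunting (Emberiza melanocephala), a night-migrating songbird, are described here as 100 gene ids of 18284 in the expression table. They were selected on the measured values: the 100 ids with the highest mean of log2(FPKM + 1) over all 12 libraries, after 29 ribosomal protein symbols (RPL and RPS) and the ids of TTR-1, AHSG and A2M-3 had been left out. FPKM is the number of fragments mapped to a gene, scaled by transcript length and by the number of mapped reads. The level of these 100 ids is therefore given as a description, and so is their share of all FPKM. The choice used no contrast of states or times, but a high value in a few libraries could bring an id in. A gene symbol was at hand for 32 of the 100 members. The other 68 are given by their Ensembl zebra finch id with no name and no role. Symbols came only from the study's lists of genes that differed between states or cycled over 24 h. Ribosomal protein genes without a symbol could therefore not be left out, and some may be among the members.

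Livers came from adult males caught in the wild from an overwintering flock and kept in captivity. In the photostimulated migratory state (M), birds held on short days and still sensitive to light had been moved to long days until they showed Zugunruhe, the nocturnal restlessness of caged migrants. In the photorefractory non-migratory state (nM), birds no longer responsive to long days stayed on long days. Both states were thus sampled under 16 h of light and 8 h of darkness, and 1 bird per state was sampled every 4 h from zeitgeber time (ZT) 1 to 21, counted in h from lights on, which gives 6 libraries per state and 1 bird per state and time. State is therefore compared over birds that also differed in time of day, and an individual bird and its time of day cannot be told apart. Reads were mapped to the zebra finch genome, another species, which limits each level to what that annotation captures.

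The liver exports most of the proteins of blood plasma, such as fibrinogen, albumin and carriers of retinol, and hepatocyte mRNA is dominated by the transcripts of these proteins. In birds the liver is also the main site of fatty acid synthesis, where FASN builds palmitate, ELOVL6 lengthens it and SCD introduces a double bond. Migrants store fat before and during the migratory season as fuel for flight. Fasting shifts the liver toward making glucose, for which PCK1 is a key enzyme.

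The labelled tissue was checked with marker genes. Of 13 hepatocyte markers 7 had a symbol, and their summed level was 18477 to 53439 FPKM in M livers, against 28319 to 110869 FPKM in nM livers. The sum includes ALB, which was listed at 0 in 3 M libraries and 1 nM library, and without ALB it was 13257 to 28238 FPKM in M livers and 12344 to 85898 FPKM in nM livers, the highest value being that of the nM library of ZT1 with its high FGG and FGB. Summed markers of leukocytes (5 of 11 with a symbol), endothelium (4 of 6) and stellate cells or fibroblasts (5 of 7) reached 229, 49.0 and 207 FPKM at most. None of the 15 erythrocyte markers had a symbol, so red cell RNA could not be assessed. Ids without a symbol may include such genes. TNNT3, a troponin of fast skeletal muscle, stood at 428 FPKM in the nM library of ZT13 and at no more than 1.05 FPKM in any other library. CPA1, a pancreatic protease, reached 29.8 FPKM in the M library of ZT13. The part of these markers in any result was not tested. Fewer cells of a type and less RNA per cell cannot be told apart in such bulk samples.

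The M library of ZT17 stood apart from the other 11. Its FPKM summed to 6988410, against 1520190 to 2793010 in the others. It gave the highest value for 70 of the 100 members and the lowest for 10, whereas over all 9566 genes compared it was highest for 31.0% and lowest for 38.5%. The median member lay 1.78 above its own mean over the other M libraries on the log2 scale there, and the median compared gene lay at -0.16. Its summed leukocyte markers were the lowest of all libraries at 57.4 FPKM and its stellate markers the highest at 207 FPKM. The 10 members at their lowest in this library were ENSTGUG00000018489, SCD, ENSTGUG00000010451, FASN, FETUB, ENSTGUG00000018412, ADK, ELOVL6, LPA-2 and P4HB, which include enzymes of fatty acid synthesis and none of the 10 most abundant members. Several results are given with and without this library, and others only with it.

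**Figure D1:**
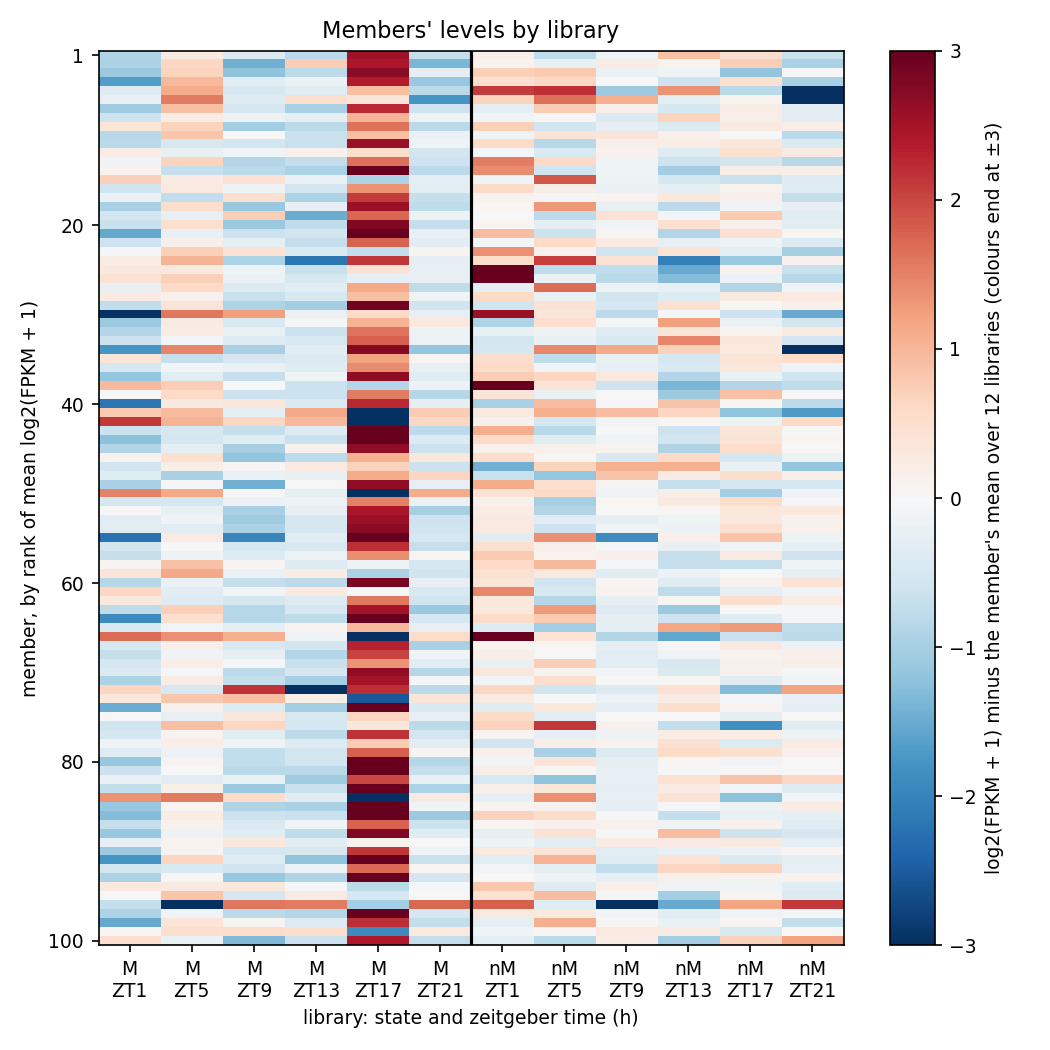
Heat map of the 100 members (rows, most abundant at the top) in the 6 M libraries and then the 6 nM libraries (columns, by zeitgeber time in h). Colour is log2(FPKM + 1) minus the member's mean over the other libraries of the same state, so differences between states are not shown. The colour bar's label instead names the mean over 12 libraries. The column of the M library of ZT17 is red for most rows, with 70 members at their highest there and 10 at their lowest, and a few rows are dark red in the nM library of ZT1.

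The 100 members held most of the FPKM in every library. In M livers they took 68.0%, 76.1%, 68.3%, 72.1%, 76.4% and 66.7% of the summed FPKM at ZT1, ZT5, ZT9, ZT13, ZT17 and ZT21 in turn, against 72.7%, 74.1%, 71.6%, 74.8%, 74.1% and 63.8% in nM livers. The mean share was 71.3% ± 4.25 in M livers and 71.8% ± 4.08 in nM livers (SD, n = 6 each). The difference of -0.56 percentage points was smaller than the SD of either state, and M lay above nM at 3 of 6 times. Averaged over both states, the share was lowest at ZT21 with 65.3% and highest at ZT17 with 75.2%, next to 75.1% at ZT5. ZT21 gave the lowest share in each state. With 1 bird per state and time these are values of single birds.

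Few ids made up these shares. Between 5 and 18 ids held 50% of the FPKM of a library, and the 10 highest members held 43.1% to 58.0% in M livers and 41.7% to 58.4% in nM livers. The id with the highest value was in every library either ENSTGUG00000018669 or ENSTGUG00000013286, with 10.4% to 24.02% of that library's FPKM. In contrast, the 32 members with a symbol held 8.63% to 12.0% in M livers and 9.14% to 18.7% in nM livers, so that members without a name here carried the larger part.

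Within the members, the leading ids held unequal shares in M and nM livers. ENSTGUG00000018669 and ENSTGUG00000013286 together held 18.98%, 23.03%, 18.98%, 28.5%, 30.1% and 18.0% in M livers from ZT1 to ZT21, against 27.5%, 23.2%, 33.6%, 41.1%, 41.1% and 26.0% in nM livers. M lay below nM at 6 of 6 times, by -0.15 points at ZT5 and -14.7 points at ZT9, and the ranges overlapped. Their mean was 22.9% ± 5.24 in M livers and 32.1% ± 7.78 in nM livers (SD, n = 6 each), a difference of -9.17 percentage points. The members ranked 3 to 100 had 43.6% to 53.1% in M livers and 32.9% to 50.9% in nM livers. Their mean of 48.3% ± 3.19 in M livers was 8.60 points above the 39.7% ± 6.98 in nM livers, and M was above nM at 6 of 6 times. Without the M library of ZT17 these differences were -10.6 and 9.01 points. The gap in ranks 3 to 100 came from 3 ids, when the members were divided at rank 5 after seeing the data. ENSTGUG00000010334, ENSTGUG00000000151 and ENSTGUG00000002417 (ranks 3 to 5) held 15.4% to 24.3% in M livers and 5.19% to 12.9% in nM livers, with no overlap and a difference of 10.03 points between means. The members ranked 6 to 100 held 27.0% to 33.6% in M livers and 26.3% to 38.0% in nM livers, a difference of -1.43 points with M above nM at 3 of 6 times. All of the 5 highest members together held 41.0% ± 6.77 in M livers and 40.2% ± 6.18 in nM livers (SD, n = 6 each), and the 10 highest differed by -2.59 points. The sign thus depends on where the members are divided. Shares of one total are tied to each other, and no test was made of them.

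**Figure D2:**
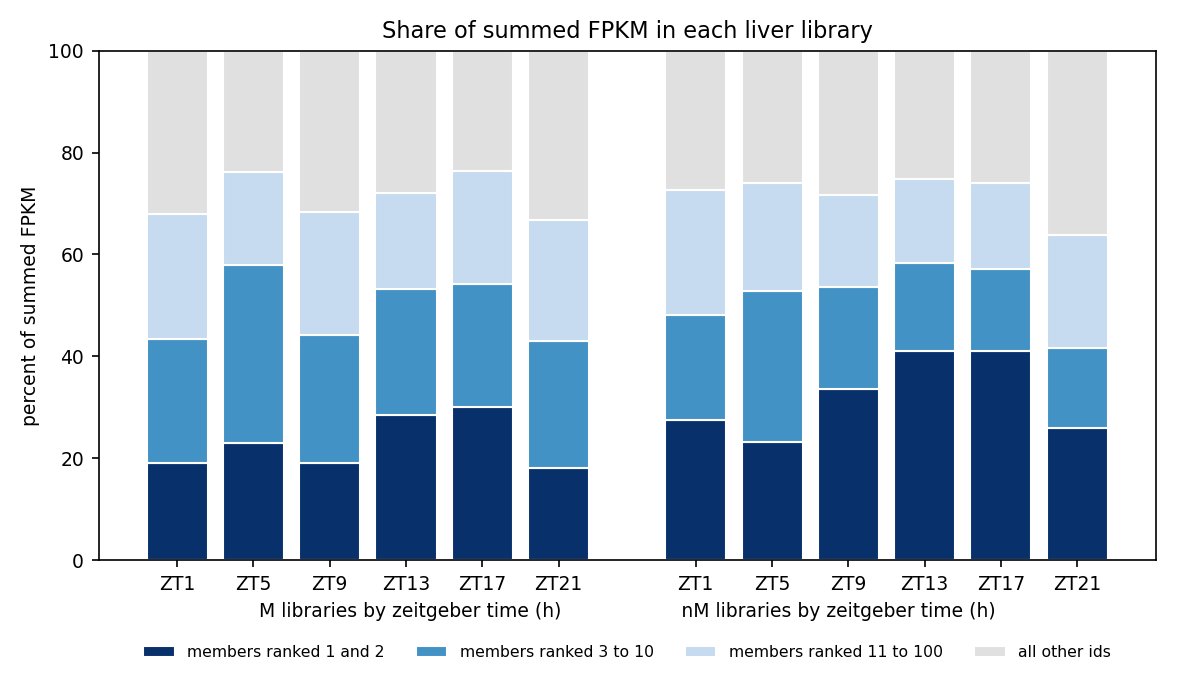
Stacked bars give the percent of summed FPKM held by the members ranked 1 and 2, 3 to 10 and 11 to 100 and by all other ids, for the 6 M libraries (left) and the 6 nM libraries (right) by zeitgeber time (h). All members together reach 63.8% to 76.4%, and the dark segment of ranks 1 and 2 is 18.0% to 30.1% in M and 23.2% to 41.1% in nM livers.

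The 2 leading ids were close to each other and well above the rest, with means of 18.12 and 18.08 on the log2 scale, followed by 16.50 for the id at rank 3. ENSTGUG00000018669 ranged from 160710 over a median of 195926 to 1168890 FPKM in M livers, and from 193843 over 307701 to 502355 FPKM in nM livers. ENSTGUG00000013286 ranged from 99719 over 230362 to 932614 FPKM in M livers, and from 190361 over 356714 to 513893 FPKM in nM livers. Both had their highest value in the M library of ZT17, the states overlapped, and neither passed the test between states (log2 fold change -0.17 with adjusted p = 0.826 and -0.54 with adjusted p = 0.488, limma).

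Next in rank came ENSTGUG00000010334, ENSTGUG00000000151, ENSTGUG00000002417, GAL10, ENSTGUG00000000842, ENSTGUG00000010734, ENSTGUG00000001176 and RBP4. ENSTGUG00000010334 had 65786 to 637569 FPKM in M livers (median 98850) and 32544 to 102243 FPKM in nM livers (median 62491). ENSTGUG00000000151 had 38368 to 399299 FPKM in M livers (median 87095) and 29455 to 74235 FPKM in nM livers (median 59415). Both overlapped between states and neither passed the test (adjusted p = 0.217 and 0.234, limma).

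GAL10, an avian beta-defensin and thus an antimicrobial peptide of birds, was the most abundant member with a symbol. Its levels were 13819 to 94830 FPKM in M livers (median 40406) and 10304 to 170909 FPKM in nM livers (median 82750), with the lowest value at ZT21 and the highest at ZT5 in each state. The difference of -0.76 did not pass the test (adjusted p = 0.423, limma). ENSTGUG00000000842 had 18314 to 126127 FPKM in M livers (median 24530) and 40850 to 85682 FPKM in nM livers (median 54048). M lay below nM at 5 of 6 times and above it only at ZT17. Its log2 fold change was -0.71 (adjusted p = 0.307), and -1.09 with adjusted p = 0.0514 without the M library of ZT17 (limma).

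The remaining leading ids varied less. ENSTGUG00000010734 lay between 30379 and 78503 FPKM in M livers and between 28350 and 53681 FPKM in nM livers, and ENSTGUG00000001176 between 16323 and 75496 FPKM in M livers and between 24986 and 51937 FPKM in nM livers. RBP4, the carrier of retinol in plasma, lay between 20556 and 55895 FPKM in M livers and between 17849 and 35240 FPKM in nM livers. None of these differed between states by the test (adjusted p = 0.530, 0.738 and 0.614, limma).

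The comparison between states asked which of the abundant transcripts changed with migratory condition. It was made with limma on log2(FPKM + 1) over the 9566 genes listed above 0.1 FPKM in at least 10 libraries, with Benjamini-Hochberg adjustment over all of them, a gene being called at an adjusted p below 0.1 and a log2 fold change beyond 0.1. All 100 members passed that filter. Since the mean runs over both states, 6 members were in only with the M library of ZT17 counted: ENSTGUG00000002629, ENSTGUG00000002381, ENSTGUG00000000899, COX4I1, ENSTGUG00000003297 and ENSTGUG00000007750. Of the members 7 were higher in M and 0 were lower. Over all genes compared 2.84% were called higher and 6.48% lower. ENSTGUG00000002629 was among the 7, and members rechosen without the M library of ZT17 gave 6 higher and 0 lower in the same fit. At an unadjusted p below 0.05 there were 14 members higher and 3 lower in M, and 25.2% of all genes in either direction; ordinary regression called no member lower. The median log2 fold change was 0.31 over the members and -0.08 over all genes, and 0.03 and -0.07 without the M library of ZT17. With each library scaled to the same FPKM total, 6 members were called higher and 0 lower, against 1.89% and 1.19% of all genes, so that over all genes the balance of higher and lower calls turned with this scaling. Without the M library of ZT17, 8 members were higher and 2 lower, against 4.01% and 8.06% of all genes.

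**Figure D3:**
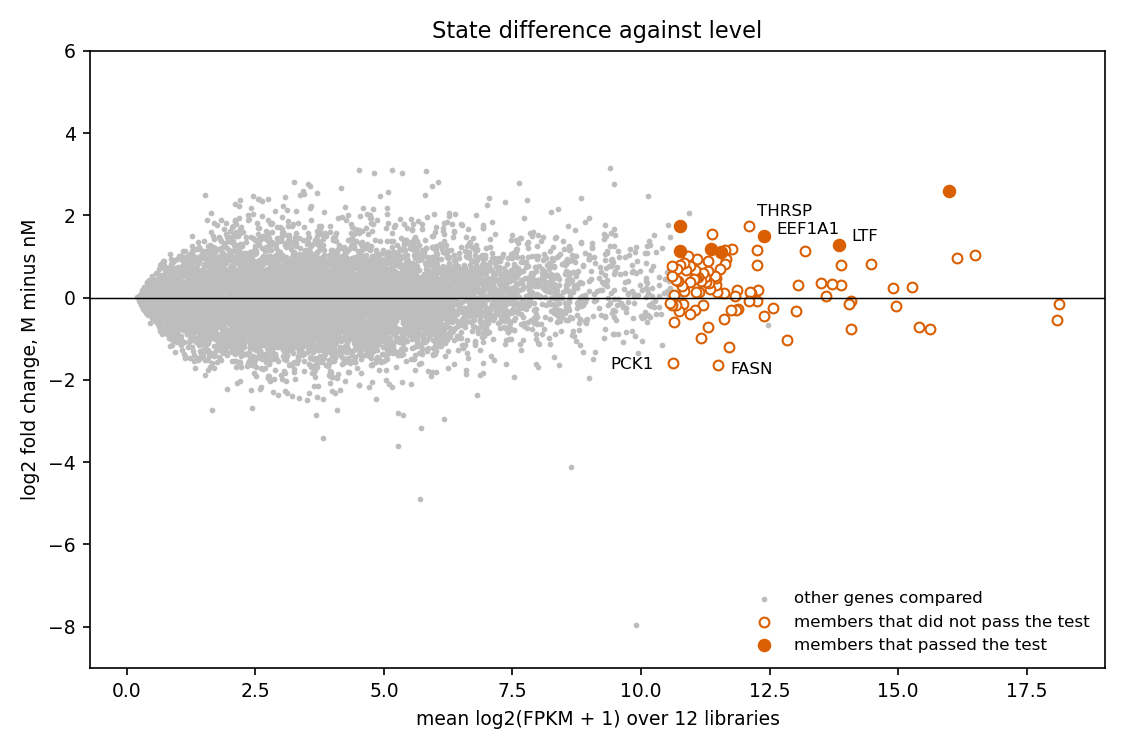
Each point is 1 of the 9566 genes compared, with its mean log2(FPKM + 1) over 12 libraries on the horizontal axis and its log2 fold change, M minus nM, on the vertical axis. Members (orange) lie at the right by their choice, and the filled points are the 7 that passed the test, all above 0.

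How many genes were called changed with the birds used, among the members and over all genes. Leaving out the M bird of ZT5, or in nM that of ZT17 or ZT21, took the count of members higher in M to 0. Over all genes compared, the count higher in M went from 272 to 29, 40 and 32 in these sets. Leaving out the M library of ZT1 took the members to 13 and all genes to 774. EEF1A1 was called in 9 of the 12 sets that lacked 1 library, ENSTGUG00000002417 in 8, LTF and ENSTGUG00000007698 in 5 each, ENSTGUG00000015186 and ENSTGUG00000002629 in 3 each and ENSTGUG00000004263 in 2. The sign did not turn in any of these sets for the 7 members.

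EEF1A1 encodes the elongation factor that brings aminoacyl-tRNA to the ribosome. It had 7925, 12731, 6982, 7342, 17308 and 5759 FPKM in M livers from ZT1 to ZT21, against 2696, 8355, 2905, 2779, 1926 and 3004 FPKM in nM livers. M was above nM at every time, and the groups overlapped through the nM library of ZT5 alone. Its log2 fold change was 1.49 ± 0.36 (SE, adjusted p = 0.0457, limma). As a share, EEF1A1 held 0.248% to 0.514% of FPKM in M livers and 0.0857% to 0.396% in nM livers. The ribosomal protein symbols that were left out of the members held 1.04% to 2.37% in M livers and 0.623% to 0.960% in nM livers, with no overlap. They had a symbol only through the study's lists of genes that differed or cycled in these same birds. Their separation by state is therefore no independent support.

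LTF, an iron-binding protein of the transferrin family, had 20426, 15110, 30510, 13348, 77584 and 15443 FPKM in M livers, against 10126, 9706, 10206, 11395, 10498 and 6345 FPKM in nM livers. Every M library was above every nM library. The log2 fold change was 1.27 ± 0.38 (SE, adjusted p = 0.0793, limma), and 0.92 with adjusted p = 0.0416 without the M library of ZT17.

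ENSTGUG00000002417, at rank 5, had the largest fold change and also the largest SD over the 12 libraries of all members, 1.93 on the log2 scale. It had 128865, 305400, 121933, 129628, 270811 and 101026 FPKM in M livers, against 89484, 94810, 14114, 57999, 16659 and 3084 FPKM in nM livers. The groups did not overlap, and the nM livers of ZT9, ZT17 and ZT21 were far below the other nM livers. The log2 fold change was 2.59 ± 0.73 (SE, adjusted p = 0.0655, limma). Its share of FPKM was 3.88% to 10.9% in M livers and 0.203% to 4.50% in nM livers.

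The other 4 members called higher had no symbol. ENSTGUG00000002629 had 1491 to 24106 FPKM in M livers (median 2153), against 628 to 1413 FPKM in nM livers (median 893), and a log2 fold change of 1.73 (adjusted p = 0.0968, limma). ENSTGUG00000015186 had 2661 to 14179 FPKM in M livers (median 2984), against 1491 to 2321 FPKM in nM livers (median 1703), with 1.17 (adjusted p = 0.0884, limma). ENSTGUG00000007698 had 1733 to 7180 FPKM in M livers (median 2175), against 950 to 1269 FPKM in nM livers (median 1238), with 1.13 (adjusted p = 0.0660, limma). In these 3 the groups did not overlap, and the highest M value was that of ZT17. ENSTGUG00000004263 overlapped between states, with 2497 to 8351 FPKM in M livers (median 3903) and 1049 to 3344 FPKM in nM livers (median 2309), and had 1.11 (adjusted p = 0.0884, limma). Without the M library of ZT17 the folds of ENSTGUG00000002629, ENSTGUG00000015186 and ENSTGUG00000007698 were 1.15, 0.80 and 0.83 and stayed called, and ENSTGUG00000004263 had 0.92 with adjusted p = 0.101.

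In 5 members every M library was above every nM library, which holds for 0.784% of all genes compared: ENSTGUG00000002417, LTF, ENSTGUG00000015186, ENSTGUG00000002629 and ENSTGUG00000007698. Of these, ENSTGUG00000002629 was a member only with the M library of ZT17 counted, where it was highest. Every M library was below every nM library for 1 member, LPA-2, and for 3.40% of all genes. LPA-2, named here after its values were seen, had 820 to 1574 FPKM in M livers (median 1407) and 1588 to 3109 FPKM in nM livers (median 1814). Its log2 fold change of -0.58 did not pass the test (adjusted p = 0.156, limma).

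**Figure D4:**
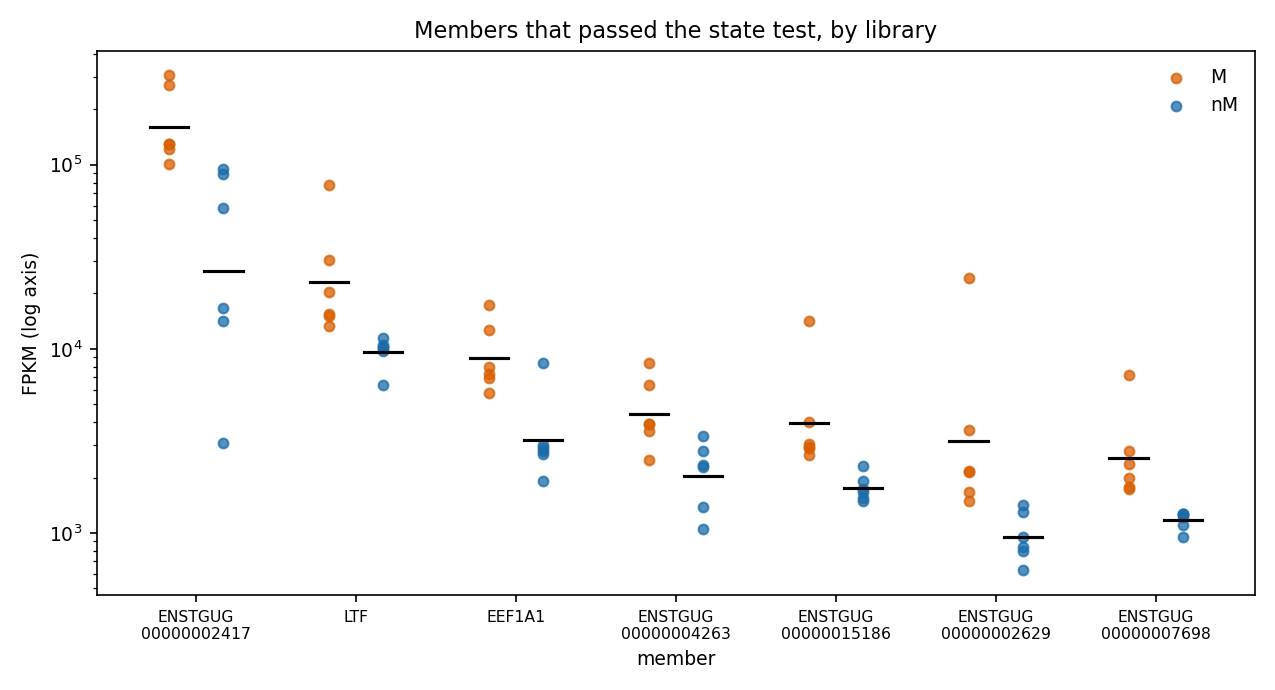
FPKM (log axis) of the 7 members that passed the state test, in order of rank, with the 6 M libraries (orange) left of the 6 nM libraries (blue) and a bar at the mean taken on the log2 scale. The M points lie above all nM points in 5 of the 7, and EEF1A1 and ENSTGUG00000004263 overlap.

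Enzymes of fat synthesis were present among the members with 5 genes of the lipid and steroid list. FASN had 3864, 3139, 1603, 1401, 220 and 3077 FPKM in M livers, against 6507, 7221, 4797, 5636, 2834 and 4819 FPKM in nM livers. M was below nM at 6 of 6 times, and the ranges overlapped. The log2 fold change was -1.64 ± 0.58 (SE), which did not pass over 12 libraries (adjusted p = 0.113), and was -1.07 with adjusted p = 0.0609 without the M library of ZT17 (limma). That library had the lowest FASN value of all. FASN was also called without the M library of ZT1 (-1.89, adjusted p = 0.0572), with a block for time of day over all 12 libraries (adjusted p = 0.0684) and with cosine and sine terms (adjusted p = 0.0810, limma). It was called in these 4 alternative settings and not in the other 17. With each library scaled to the same FPKM total its adjusted p was 0.296, and with scaling by median ratios 0.133 (limma).

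SCD, the stearoyl-CoA desaturase, had 452 to 5960 FPKM in M livers (median 4834) and 1444 to 7089 FPKM in nM livers (median 5054), with the lowest value again in the M library of ZT17. ELOVL6, named after its values were seen, had 235 to 4183 FPKM in M livers (median 2174) and 931 to 4217 FPKM in nM livers (median 1738), and was also lowest there. ME1, the malic enzyme that supplies NADPH for fat synthesis, had 2505 to 8732 FPKM in M livers and 2961 to 10188 FPKM in nM livers. THRSP, a nuclear protein linked to lipogenesis, had 2891, 18531, 4561, 6625, 39454 and 4110 FPKM in M livers, against 1787, 5511, 4620, 3598, 2842 and 422 FPKM in nM livers. THRSP thus had its highest value in the library where FASN, SCD and ELOVL6 had their lowest. None of these 4 passed the test, with adjusted p = 0.760 for SCD, 0.878 for ELOVL6, 0.895 for ME1 and 0.155 for THRSP (limma). Without the M library of ZT17 the log2 fold change went from -0.31 to 0.24 for SCD and from -0.16 to 0.41 for ELOVL6.

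Over the 39 named genes of the lipid and steroid list that were compared, 1 was called higher, 2 lower and 36 did not pass. Their median log2 fold change was -0.11. Without the M library of ZT17, 1 of these genes was higher and 3 were lower, with a median of 0.02. For this list and those that follow, the shares over all genes with all libraries were 2.84% higher and 6.48% lower, with a median of -0.08. No test of a list was made. Named genes are those in the study's own lists of genes that differed between states or cycled. They were thus preselected on these same birds, and their counts are not like those over all genes. The genes called with all libraries were not members and were named after their values were seen. AKR1D1, a reductase of bile acid synthesis, had a median of 462 FPKM in M livers and 83.9 FPKM in nM livers (log2 fold change 2.36, adjusted p = 0.0510, limma). LPIN1, a phosphatidate phosphatase, had a median of 7.38 FPKM in M livers and 29.5 FPKM in nM livers (log2 fold change -2.28, adjusted p = 0.0322, limma), and ELOVL1, a fatty acid elongase, 86.5 FPKM in M livers and 156 FPKM in nM livers (log2 fold change -0.97, adjusted p = 0.0382, limma).

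Proteins of blood clotting were led by the fibrinogen chains FGG and FGB. FGG had 5981, 7056, 4135, 3535, 4053 and 4022 FPKM in M livers, against 42162, 5640, 3921, 2983, 5692 and 3895 FPKM in nM livers. FGB had 5833, 5109, 3363, 2290, 2020 and 3008 FPKM in M livers, against 26712, 5174, 2881, 1850, 2469 and 2659 FPKM in nM livers. In both chains the nM bird of ZT1 was far above all other birds. F2, prothrombin, had 2007 to 3881 FPKM in M livers (median 2490) and 1394 to 2368 FPKM in nM livers (median 1683), and M was above nM at 6 of 6 times with a log2 fold change of 0.66 (adjusted p = 0.105, limma). FGG and FGB had adjusted p = 0.602 and 0.744. Of the 12 named genes of clotting and protease inhibition compared none passed the test, with a median of -0.45.

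The nM library of ZT1 was highest for 8 members, against 15.8% of all genes compared. Beside FGG and FGB these were ENSTGUG00000000562, ENSTGUG00000018489, ENSTGUG00000018359, FETUB, ENSTGUG00000018412 and LPA-2. ENSTGUG00000018359, named after its values were seen, stood at 50911 FPKM there and between 2740 and 7156 FPKM in the other 11 libraries. ENSTGUG00000018412 stood at 23905 FPKM there, at 116 FPKM in the M bird of ZT17 and between 1318 and 4302 FPKM elsewhere. Of the ids left out of the members, A2M-3 was also highest there, with 2740 FPKM in that library and 76.4 to 441 FPKM in the others.

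Plasma carriers and secreted glycoproteins were represented by VTN, SPP2 and FETUB beside RBP4. VTN, vitronectin, had 2028 to 18436 FPKM in M livers (median 3263) and 2105 to 5317 FPKM in nM livers (median 3615). SPP2, a secreted phosphoprotein, had 1487, 6190, 6451, 4091, 19525 and 4501 FPKM in M livers, against 1328, 3969, 2260, 3814, 2390 and 1489 FPKM in nM livers, with M above nM at each time and a log2 fold change of 1.17 (adjusted p = 0.171, limma). FETUB, fetuin B, had 1145 to 3802 FPKM in M livers (median 2002) and 2692 to 4259 FPKM in nM livers (median 3094), with M below nM at each time and a fold of -0.72 (adjusted p = 0.146, limma). Of the 14 named plasma transport genes compared 1 was higher, 1 lower and 12 did not pass, with a median of -0.03. LEAP2, a liver-expressed peptide named after its values were seen, had a median of 771 FPKM in M livers and 258 FPKM in nM livers (log2 fold change 1.84, adjusted p = 0.0483, limma). The gene called lower was TTR-1, a form of the thyroid hormone carrier transthyretin and 1 of the 3 ids left out by name, with 23.5 to 145 FPKM in M livers and 10148 to 39551 FPKM in nM livers (log2 fold change -7.97, adjusted p = 1.04e-06, limma). AHSG, fetuin A, which would have ranked 26, had 2417 to 8034 FPKM in M livers and 4411 to 25148 FPKM in nM livers, and was not called (adjusted p = 0.333).

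Sugar metabolism was represented by GAPDH, an enzyme of glycolysis, and PCK1, which directs carbon toward glucose. GAPDH had 6298 to 26340 FPKM in M livers (median 7953) and 5982 to 10766 FPKM in nM livers (median 7207). PCK1 varied the most of the members with a symbol, with an SD of 1.81 on the log2 scale. It had 604, 149, 2266, 2233, 507 and 2471 FPKM in M livers, against 7662, 2217, 426, 1135, 5429 and 9355 FPKM in nM livers. In nM livers it was thus lowest at ZT9 and highest at ZT21 and ZT1, and in M livers it was low at ZT1, ZT5 and ZT17. Its log2 fold change of -1.58 did not pass the test (adjusted p = 0.251), and GAPDH had 0.32 (adjusted p = 0.541, limma). Without the M library of ZT17 the fold of GAPDH was 0.02. Of 23 named genes of the list 2 were higher, 0 lower and 21 did not pass. The called genes, named after their values were seen, were GALK1, the galactokinase (median 9.68 FPKM in M livers and 3.15 FPKM in nM livers, adjusted p = 0.0954), and TIGAR, a fructose bisphosphatase (19.6 FPKM in M livers and 6.44 FPKM in nM livers, adjusted p = 0.0495, limma).

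Amino acid enzymes were TAT, the tyrosine aminotransferase, and BHMT2, which remethylates homocysteine. TAT had 1739, 4137, 3564, 1804, 2949 and 1560 FPKM in M livers, against 2664, 6043, 1908, 1158, 613 and 1439 FPKM in nM livers, with the highest value at ZT5 in each state. BHMT2 had 1193 to 2635 FPKM in M livers and 859 to 2659 FPKM in nM livers and also peaked at ZT5 in each. Neither passed the test between states (adjusted p = 0.535 and 0.894, limma), nor did any of the 42 named genes of the list, whose median was -0.03. Without the M library of ZT17, 1 of the 42 was called lower and the list's median was 0.03.

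Iron storage had FTH1, the ferritin heavy chain, as its single member. It had 17097, 10836, 10178, 9355, 98790 and 10349 FPKM in M livers, against 40814, 12640, 16570, 9802, 19896 and 19680 FPKM in nM livers. M was below nM at 5 of 6 times, and at ZT17 it was above. The fold was -0.14 (adjusted p = 0.878), and -0.67 with adjusted p = 0.222 without that library (limma). Among the 5 named genes of the list ALAS1, which starts haem synthesis and was named after its values were seen, was higher, with a median of 14.1 FPKM in M livers and 1.52 FPKM in nM livers (log2 fold change 2.35, adjusted p = 0.0355, limma).

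Mitochondrial respiration was represented by ATP5I, a subunit of ATP synthase, and COX4I1, a subunit of cytochrome c oxidase. ATP5I had 1933 to 2798 FPKM in 5 M livers and 16064 FPKM in that of ZT17, against 1433 to 2573 FPKM in nM livers. COX4I1 had 1093 to 1761 FPKM in 5 M livers and 11814 FPKM in that of ZT17, against 1071 to 1555 FPKM in nM livers. Their adjusted p values were 0.362 and 0.509 (limma), and their folds of 0.65 and 0.51 became 0.18 and -0.02 without that library. Of 24 named genes 1 was called higher, PRELID1 (named after its values were seen), with a median of 538 FPKM in M livers and 223 FPKM in nM livers (adjusted p = 0.09998, limma). The list's median of 0.54 was 0.12 without the M library of ZT17, with 2 genes called higher.

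The list of oxidation, conjugation and redox enzymes had 3 members. They were MGST1 and GSTA4-2, both glutathione transferases, and ADK, the adenosine kinase, given here by its place in that list. GSTA4-2 had 2624 to 4883 FPKM in M livers (median 3315) and 1200 to 4270 FPKM in nM livers (median 1688), with M above nM at 6 of 6 times and a fold of 0.89 that lay just outside the threshold (adjusted p = 0.104, and 0.0988 without the M library of ZT17, limma). MGST1 had 2239 to 2743 FPKM in 5 M livers and 7166 FPKM in that of ZT17, against 1534 to 3760 FPKM in nM livers. ADK was even at 2135 to 3231 FPKM in 5 M livers and had 440 FPKM in that of ZT17, against 2033 to 2772 FPKM in nM livers. Of 24 named genes of the list SULT1E1, a sulfotransferase named after its values were seen, was called higher, with a median of 14.7 FPKM in M livers and 4.20 FPKM in nM livers (adjusted p = 0.0476, limma). Without the M library of ZT17, 2 genes of the list were called higher.

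P4HB, a disulfide isomerase that folds secreted proteins, stood at rank 99. It had 1513 to 2005 FPKM in 5 M livers and 483 FPKM in that of ZT17, against 1239 to 1936 FPKM in nM livers, and did not pass the test (adjusted p = 0.748, limma). Of the 19 named genes for folding and secretion, 5 were called higher and none lower, with a median of 0.28, beside 2.84% and 6.48% of all genes. As in every list, the named genes were preselected by the study's lists of genes that differed or cycled. They were SEC13, CCT5, HSPD1, HSPE1 and TXNDC12, named after their values were seen. HSPD1, a mitochondrial chaperonin, had 532 to 975 FPKM in M livers and 295 to 497 FPKM in nM livers (adjusted p = 0.0476), and its partner HSPE1 516 to 1732 FPKM in M livers and 210 to 576 FPKM in nM livers (adjusted p = 0.0522, limma). Of 13 named translation genes EEF1A1 alone was called, and the median was 0.39. Without the M library of ZT17, 2 of the 13 were called higher and 1 lower, with a median of 0.21.

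The members also varied among themselves in how even they were. The median SD over the 12 libraries on the log2 scale was 0.86 for members and 0.65 for all genes compared, and 0.50 and 0.47 without the M library of ZT17. After ENSTGUG00000002417 and PCK1 the largest SDs were those of ENSTGUG00000001668 (1.77), ENSTGUG00000018412 (1.73) and ENSTGUG00000010451 (1.64). ENSTGUG00000001668 had 1261 to 5298 FPKM in 5 M livers and 75290 FPKM in that of ZT17, against 524 to 3463 FPKM in nM livers. ENSTGUG00000010451 showed the reverse, with 3131 to 7476 FPKM in 5 M livers and 100 FPKM in that of ZT17, against 3775 to 7142 FPKM in nM livers. The most even members were ENSTGUG00000004077 (0.26), ENSTGUG00000000650 (0.30), ENSTGUG00000007965 (0.39), ENSTGUG00000010734 (0.41) and ENSTGUG00000010711 (0.42). ENSTGUG00000004077 had 1288 to 1851 FPKM in M livers and 1602 to 2235 FPKM in nM livers. ENSTGUG00000000650 had 12287 to 23000 FPKM in M livers and 13899 to 23362 FPKM in nM livers.

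Time of day was examined with a cosine and sine of a 24 h period fitted over all 12 libraries with state as a term. This fit looks for a rhythm shared by both states. A rhythm limited to M or nM livers, or shifted in time between them, could be missed. No member passed at an adjusted p below 0.1, and 0.0523% of all genes did (5 genes, limma). At an unadjusted p below 0.05 there were 15 members and 8.24% of all genes, and ordinary regression gave 0 members at the adjusted threshold and 13 at the unadjusted one. The smallest adjusted p of a member was 0.428, for FGB. Without the M library of ZT17, C20orf149 was the only member to pass (amplitude 1.37 on the log2 scale, peak at ZT 3.11, adjusted p = 0.0580, limma). It was named after its values were seen and had 1452 to 17734 FPKM in M livers and 3165 to 34367 FPKM in nM livers. For ordinary regression and for the fit without the M library of ZT17, counts over all genes are not given here. Their member counts therefore have no share over all genes to be read against. As a share of FPKM, 33 members were highest at ZT17 and 26 at ZT1 in M livers, whereas in nM livers 38 were highest at ZT21 and 28 at ZT5. In nM livers 3 members were highest at ZT17. Such counts were not made over all genes, and each time stands for 1 bird per state. A member's percent also moves with the other ids of its library.

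**Figure D5:**
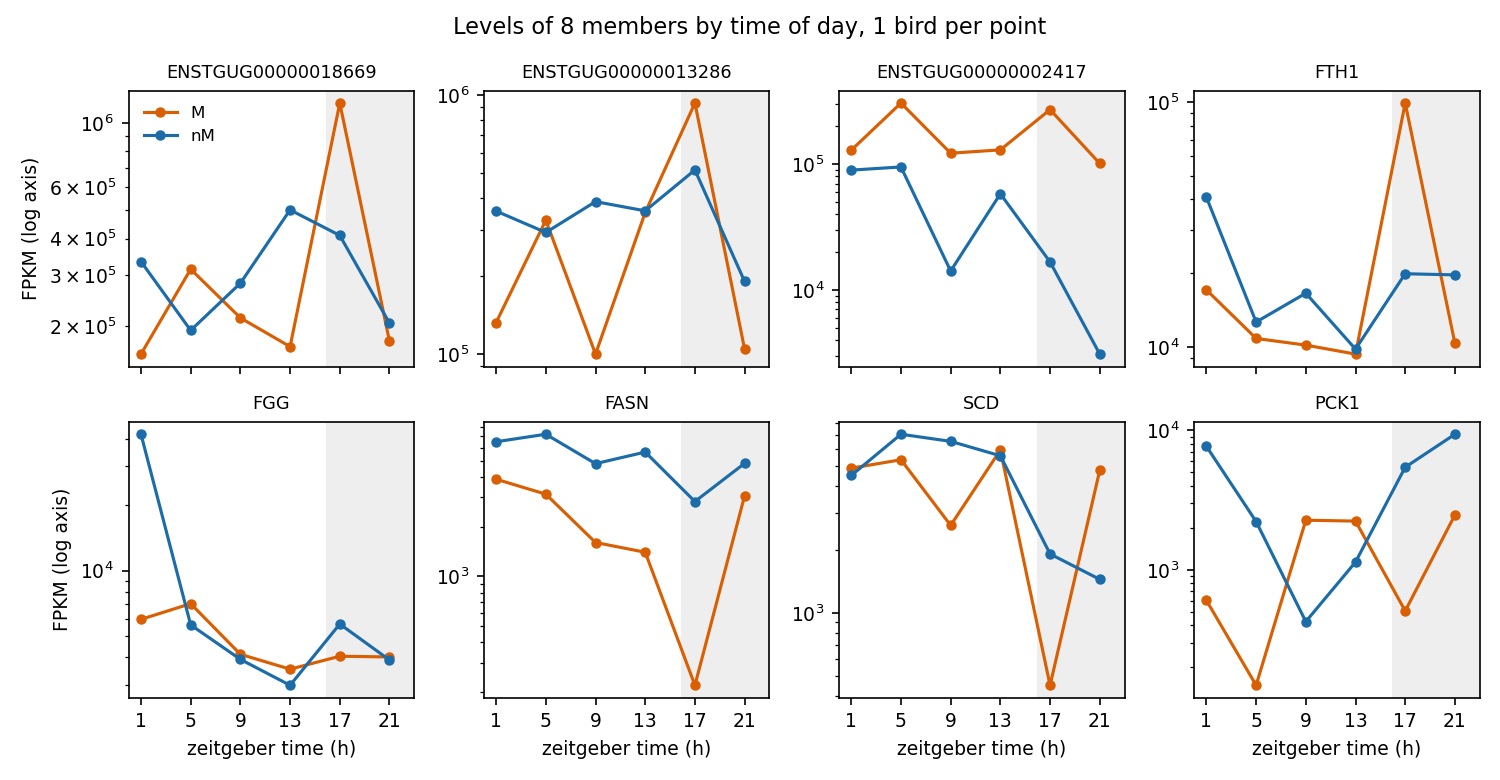
FPKM (log axis) of 8 members against zeitgeber time (h), for M (orange) and nM livers (blue), 1 bird per point, with the dark phase shaded. The M point of ZT17 is the highest for both leading ids and FTH1 and the lowest for FASN and SCD, and FGG stands at 42162 FPKM in the nM bird of ZT1.

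The members were not a fixed top 100 of each liver. Of the 100, 39 were among the 100 highest ids of every library and 15 in 6 or fewer libraries. Between 70 and 87 members were in a library's own top 100, with the smallest number in the M library of ZT17. The last members inside the threshold were ENSTGUG00000003297, P4HB and ENSTGUG00000007750 with means of 10.60, 10.59 and 10.57, and the first ids outside were ENSTGUG00000011574, LDHB and ENSTGUG00000000312 with 10.57, 10.56 and 10.55 on the log2 scale. No member was listed at 0 in any library.

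ALB, the gene of serum albumin, was not a member. It was named here after its values were seen and was listed at 0 in 4 libraries, those of ZT1, ZT5 and ZT9 in M and that of ZT5 in nM. By the study's supplement these 4 libraries had the most reads of all. The part of read depth in these zeros was not tested. In the other 8 ALB had 20205, 34129 and 17300 FPKM in M livers at ZT13, 17 and 21, against 24971, 39835, 36842, 28648 and 21574 FPKM in nM livers at ZT1, 9, 13, 17 and 21. Over those libraries its mean of 14.71 on the log2 scale would place it at rank 11. No fold is given for it. ENSTGUG00000017838 was the only other id of this kind, listed at 0 in the nM libraries of ZT9, 13 and 17 and at 639 to 5470 FPKM in the other 9.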

How the data were processed

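Liver poly-A RNA of 12 birds was sequenced as single-end reads. As far as the submitters' processing notes and the study's methods state, reads were clipped and checked with FastQC, most ribosomal RNA reads were removed with Bowtie2 2.0.2, the rest were aligned with STAR to the zebra finch genome, and genes were quantified with Cufflinks 2.2.1. The authors deposited FPKM per gene and a log2 table, which equalled log2(FPKM + 1) within 1e-06 in 134952 of 134952 values. FPKM divides by transcript length, so the sum over genes is not fixed and differs between libraries. The deposited files do not hold the depth of the libraries. The study's supplement lists reads per library, which were not used in any fit or share here. FPKM values are not counts, so no count model or counting interval was used. Gene symbols came from the study's lists of differentially expressed and of cycling genes, which gave a symbol for 4651 of 18284 ids. Having a symbol thus depended on the study's results from these same birds.

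Members were ranked by mean log2(FPKM + 1), with a pseudocount of 1. States were compared with limma 3.58.1 (R 4.3.3; moderated by empirical Bayes) over genes above 0.1 FPKM in at least 10 of 12 libraries. A call needed an adjusted p below 0.1 and a log2 fold change beyond 0.1. Rhythm was tested with cosine and sine terms of 24 h beside state. Fits were tested on simulated data with independent normal noise per gene. Those data held no library that stood apart, so they cannot show how such a library affects the calls. Shares of FPKM were described without a test. Lists of genes by function were described by counts and medians.

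Genes with values in the text were the 10 highest members, every member called, up to 4 per list, the 3 members and 3 ids on either side of the threshold, the 5 with the largest and the 5 with the smallest SD, and the leading id of each library. The members, the lists and this rule were chosen with earlier results of these data known. Other genes are marked as named after their values were seen. Alternatives were the pseudocount, filter, scaling, regression, a time-of-day block, each library left out and other ways to choose the members. The libraries are separate birds, so p-values cover the spread between birds, which includes time of day. Python 3.11.15 was used for tables and figures. All sample columns in the files were used (0 left over).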

Additional observations from a re-analysis of the deposited data

Results flagged for a closer look

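In groups of 6 libraries, a value was marked where its gap to the nearest of the others took more of the group's range than the 95% critical value of Dixon's test allows. For independent values with a normal spread, chance marks about 1 in 20 groups. Gene levels were taken as FPKM without a log, and the groups share the same libraries, so that rate need not hold here. Of 82 groups looked at, 24 values were marked, 16 of them in the M library of ZT17 and 5 in the nM library of ZT1. Their causes were not tested.

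The share of the members was 63.8% in the nM library of ZT21, below 71.6% to 74.8% in the other 5 nM livers. LTF had 6345 FPKM in the same library, below 9706 to 11395 FPKM in the others.

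In the M library of ZT17, 15 of the members looked at in this way were marked as far above the other M livers. These were ENSTGUG00000018669 (1168890 FPKM), ENSTGUG00000013286 (932614 FPKM), ENSTGUG00000010334 (637569 FPKM) and ENSTGUG00000000842 (126127 FPKM) among the leading ids. FTH1 had 98790 FPKM there, against 9355 to 17097 FPKM in the other M livers. LTF had 77584 FPKM, GAPDH 26340 FPKM, VTN 18436 FPKM, SPP2 19525 FPKM and MGST1 7166 FPKM. ATP5I had 16064 FPKM and COX4I1 11814 FPKM. Of the called ids, ENSTGUG00000015186 had 14179 FPKM, ENSTGUG00000002629 24106 FPKM and ENSTGUG00000007698 7180 FPKM. P4HB was below the others with 483 FPKM, against 1513 to 2005 FPKM.

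In the nM library of ZT1, FGG had 42162 FPKM, FGB 26712 FPKM, FTH1 40814 FPKM, GSTA4-2 4270 FPKM and F2 2368 FPKM, all above the other nM livers. EEF1A1 had 8355 FPKM in the nM library of ZT5, against 1926 to 3004 FPKM in the other nM livers.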

How the results depend on the processing

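The count of 7 members higher in M was 3 with a pseudocount of 0.1 or with ordinary regression, 4 without the filter or with time-of-day terms added, and 11 with members chosen by mean FPKM. Of the members 91 were also in that choice. Mean FPKM gives more weight to high values than the mean of logs, and the M library of ZT17 had the largest FPKM total. Ids could thus enter through that M library, so the count of 11 is not independent of the choice. The counts over all genes were 272 in the main fit, 208 with that pseudocount and 155 with ordinary regression. They were 228 of 12498 without the filter and 213 with time-of-day terms. With the scaling by median ratios, on sets without the M library of ZT17 (chosen after seeing the data), the members' count was also 11, beside 491 of all genes. Leaving out 1 library gave 0 to 13 members and 29 to 774 of all genes. The count of 0 members lower in M was 1, FASN, with a replicate block of time of day or with time-of-day terms. It was also 1 under both scalings without the M library of ZT17 (chosen after seeing the data), there ENSTGUG00000000842 and not FASN. With 1 library left out it was 0 to 2. Over all genes 620 were lower in the main fit, 611 with the block and 518 with time-of-day terms. Without the M library of ZT17 there were 623 with scaling by median ratios and 192 with scaling to the same FPKM total. With 1 library left out there were 171 to 1205. The count of 0 members with a rhythm was 0 to 1 with 1 library left out, and the matching counts over all genes are not given here. The cause was not tested. The difference in the members' share (-0.56 points) lay between -2.16 and 0.35 with 1 library left out, so its sign turned while it stayed within the SD of a state, and was -3.13 between medians. The block left it at -0.56, as it must with 1 bird per state at every time. The difference for the 2 leading members lay between -10.95 and -7.36, and for ranks 3 to 100 between 7.23 and 10.8. Birds of the same time are different birds. The deviations of such pairs correlated at 0.03 to 0.47, positive at all 6 times but above 0.1 at only 3, and the nM bird of the same time was the best match for the M birds of ZT5 and ZT21 only. With the block 8 members were higher, beside 317 of all genes. Of the 7 calls 6 were kept, ENSTGUG00000002629 was not called (adjusted p = 0.102, limma), and THRSP (0.0943) and GSTA4-2 (0.0906) were. Depth was not used in any fit or share here, and each state has 1 bird per time, which limits every statement on time of day.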

Other observations

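Several members with a symbol were in none of the functional lists and were named after their values were seen. PSPH-1, a phosphoserine phosphatase of serine synthesis, had 7824 to 20556 FPKM in 5 M livers and 67401 FPKM in that of ZT17, against 7656 to 25570 FPKM in nM livers. PRPS2, which makes the ribose donor for nucleotides, had 2158 to 4821 FPKM in M livers and 1488 to 3936 FPKM in nM livers, with the highest value at ZT5 in each state. Its unadjusted p for a 24 h rhythm was 0.00943, and its adjusted p was 0.489 (limma). SERF2 had 2083 to 3462 FPKM in 5 M livers and 26546 FPKM in that of ZT17, against 1740 to 3367 FPKM in nM livers.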
